A study of Mus musculus with 46 samples.

Results

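The nuclear-encoded subunits of the respiratory chain were examined in AB1-HA tumors, a murine mesothelioma grown under the skin of BALB/c mice that were male and 8 to 10 weeks old by the labels. Members were all complete entries of the counts table whose symbol begins as a subunit of complex I (Nduf a, b, c, s or v with a number), of complex IV (Cox4 to Cox8 with a letter) or of complex V (Atp5 with a letter), leaving out symbols that end in -ps or carry os or af. This gave 76 members of 46011 complete entries, from 82 entries that match the patterns. All mice received cyclophosphamide (CY) at 200 mg/kg, and each tumor came from a different mouse in a bilateral model in which the tumor left behind gave the response. The 46 tumors formed 6 groups: complete responders (CR) and the animals that the labels call partial responders (PR) and the study's text calls progressors, with 13 CR and 13 PR tumors resected on day -1, before CY (day 9 after inoculation), 5 CR and 5 PR on day +3 (day 13), and 5 CR and 5 PR on day +7 (day 17). The tumors of day -1 had not been exposed to CY, and later tumors were also older, so that CY and tumor age cannot be told apart here. Nothing says which libraries were prepared or sequenced together.

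The respiratory chain sits in the inner mitochondrial membrane. Complex I takes electrons from NADH, complex IV passes electrons from cytochrome c to oxygen, both move protons across the membrane, and complex V (ATP synthase) uses the returning protons to make ATP. A small part of the subunits is encoded by mitochondrial DNA, and the rest, described here, is encoded in the nucleus and imported. Of the members, 7 were core subunits of complex I and 31 were accessory subunits of complex I. Complex IV had 12 common subunits, with Ndufa4 counted there, and the retrocopy Cox6c2. Complex V had 5 subunits of the F1 head, 4 of the peripheral stalk, 3 that encode the c-ring and 5 small membrane subunits. A further 8 were tissue-restricted or inducible isoforms. Symbols that sort after Pax7, among them those of complex II and most of complex III, were not analysed here.

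Promoters gave a view of the members that the selection rule did not use. RefSeq promoter windows (GRCm38.p6, from 250 bases before the start to 50 after it) were found for 59 members. The letters GCGCANGCG, the core of sites for NRF1, a transcription factor named for respiratory genes, were present on either strand in 15 of the 59 (25.4%), against 6.47% of all 27025 windows. CCGGAAG, a form of the ETS site that GABP binds, was in 12 (20.3%, against 9.12%), and AANATGGCG, a form of the YY1 site, in 8 (13.6%, against 2.51%). ACGTG, the core of a hypoxia response element, was in 14 (23.7%, against 19.7%). A match describes letters in a window and is not a binding site. Windows of 30 bases around matches are shown as examples from complexes I, IV and V, on the strand of the gene, with the matched letters in capitals; a match on the other strand appears as its reverse complement.

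Atp5e, ETS, chr2:174464185-174464214, minus strand: tacggccacagCTTCCGGtagccgctcggc
Cox6b1, ETS, chr7:30626124-30626153, minus strand: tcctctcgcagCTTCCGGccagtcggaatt
Ndufb7, ETS, chr8:83566727-83566756, plus strand: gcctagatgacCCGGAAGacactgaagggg
Atp5k, NRF1, chr5:108434430-108434459, minus strand: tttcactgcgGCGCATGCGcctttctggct
Cox6a1, NRF1, chr5:115349101-115349130, minus strand: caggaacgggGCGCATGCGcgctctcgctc
Ndufs5, NRF1, chr4:123718265-123718294, minus strand: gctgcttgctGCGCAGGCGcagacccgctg
Cox5a, hypoxia element core, chr9:57521108-57521137, plus strand: ggcgcggcgccgACGTGgtttgtcctccac

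Tumors held 10227681 to 14218987 counts on day -1, 15412744 to 18748688 on day +3 and 16047930 to 19446596 on day +7, so that depth also increased with time. Levels are CPM, a gene's counts as a share of its TMM-scaled library on a fixed scale, and tests used edgeR's quasi-likelihood method with Benjamini-Hochberg adjustment over all genes tested, at a false discovery rate (FDR) under 0.1. Of the 76 members, 72 passed the filter on low counts over the 46 tumors and 69 passed it over the 26 tumors of day -1. Cox8c, a testis isoform, had 0 counts in all tumors, which allows up to 3 counts. Cox7b2 had 5 counts in all, Ndufa11b had 14 and Ndufs6b had 1. Cox6c2 may share reads with its parent Cox6c, and Ndufb4c with Ndufb4, so that their values are uncertain. The tumor label was met by Msln, the mesothelin gene, at a median of 374 CPM on day -1. Of the other listed mesothelium and tumor genes, Efemp1 had a median of 1124 CPM and Krt8 of 10.25 CPM on that day. However, Calb2, Krt18, Krt19 and Muc16 had medians of 0.164, 0.16, 0.249 and 0 CPM, and Bnc1, Gpm6a and Lrrn4 had 0.287, 0.171 and 0.507 CPM.

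Before CY, the members spanned a wide range of levels. Per kilobase of median transcript length, which is needed to compare genes, the highest mean level over the 26 tumors was that of Atp5b, the catalytic beta subunit of ATP synthase, with 916 CPM per kb. It was followed by Atp5g3, a c-ring gene, with 667 CPM per kb and by Atp5a1, the alpha subunit, with 470 CPM per kb. Cox4i1, the common isoform of complex IV subunit 4, had 435 CPM per kb. Of the restricted isoforms, Cox6a2 had the highest level, with 4.92 CPM per kb. The common members varied little between tumors. Among the 72 members with a mean of 1 CPM or more over the 46 tumors, the coefficient of variation had a median of 7.31% in CR and 8.58% in PR tumors of day -1, and it was under 15% for 65 members in CR and 62 in PR. The largest values belonged to Cox6c2 and Cox8b in both groups.

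Over time, the summed level of the 76 members rose while that of the subunits encoded by mitochondrial DNA fell. The members summed to 9498 to 12635 CPM on day -1 (median 10744), 12118 to 13746 CPM on day +3 (median 12967) and 12298 to 15924 CPM on day +7 (median 15110). The range of day -1 was reached by 2 tumors of day +3 and 1 of day +7. The 13 mitochondrially encoded subunits summed to 52787 to 69629 CPM on day -1 (median 60094), 26319 to 37665 CPM on day +3 (median 29959) and 23070 to 32161 CPM on day +7 (median 29209), so that every tumor after CY lay under every tumor before it. The sum of the members was 15.4% to 21.1% of the mitochondrially encoded sum on day -1, 35.5% to 48.1% on day +3 and 47.2% to 59.1% on day +7. CR_Day+7 replicate 4 had the lowest sum of the members after day +3, with 12298 CPM, and the other 9 tumors of day +7 had 13730 CPM or more.

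**Figure D1:**
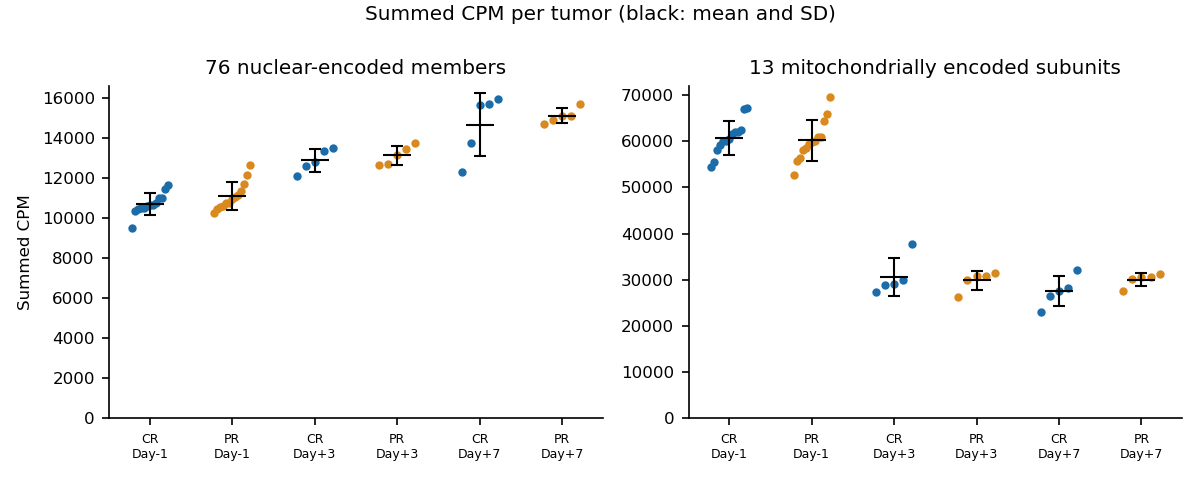
Summed CPM per tumor in the 6 groups (x axis) for the 76 nuclear-encoded members (left) and the 13 mitochondrially encoded subunits (right); points are tumors and black marks are the mean with SD. The medians by day go from 10744 to 12967 and 15110 CPM on the left and from 60094 to 29959 and 29209 CPM on the right.

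By gene, 12 of the 13 mitochondrially encoded subunits were called lower on day +3 than on day -1 (median log2 fold change -1.17) and 12 lower on day +7 (median -1.69). mt-Nd4l fell by 2.29 on the log2 scale by day +7 and mt-Nd2 by 2.16. mt-Co3 differed from the others, with a log2 fold change of 0.07 on day +3 (adjusted p = 0.268, edgeR) and a rise of 0.25 by day +7 (adjusted p = 7.2e-05, edgeR). All 13 were called lower on both days when the length trend described below was taken out, mt-Co3 at -0.28 and -0.14. These transcripts are made and processed in the mitochondrion, and how the libraries retained them was not tested.

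Of the 72 members tested, 56 rose and 11 fell from day -1 to day +3, with a median log2 fold change of 0.50, where all 13194 genes tested had a median of -0.02, 37.9% called higher and 39.6% called lower. From day -1 to day +7, 62 members rose and 6 fell (median 0.68), beside 43.0% of all genes called higher and 42.8% called lower (median -0.01). From day +3 to day +7, 46 members rose and 9 fell (median 0.22), beside 38.8% of all genes called higher and 36.5% called lower (median 0.02). The comparisons with day -1 share the same 26 tumors. A change of CPM in a whole tumor does not tell fewer cells of a type from less RNA per cell. Beside these counts, 13 leukocyte genes summed to 2154 to 4834, 7015 to 8975 and 9424 to 18263 CPM on the 3 days. Lyz2 alone had medians of 1517, 6034 and 10160 CPM. Against day -1, 6 of 12 tested leukocyte genes rose and 2 fell on day +3. On day +7, 11 rose and 1 fell. The sum of 10 cell cycle genes was 2782 to 3823, 1689 to 2078 and 622 to 1059 CPM. Msln had medians of 374, 344 and 59.2 CPM, while Efemp1, of the same list of 10 mesothelium and tumor genes, had 1124, 1300 and 867 CPM. The summed level of that list had medians of 1518, 1646 and 927 CPM. Of its 4 tested genes, 2 rose and 1 fell on day +3 against day -1, and 4 fell on day +7. Their part in the members' changes was not tested.

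**Figure D2:**
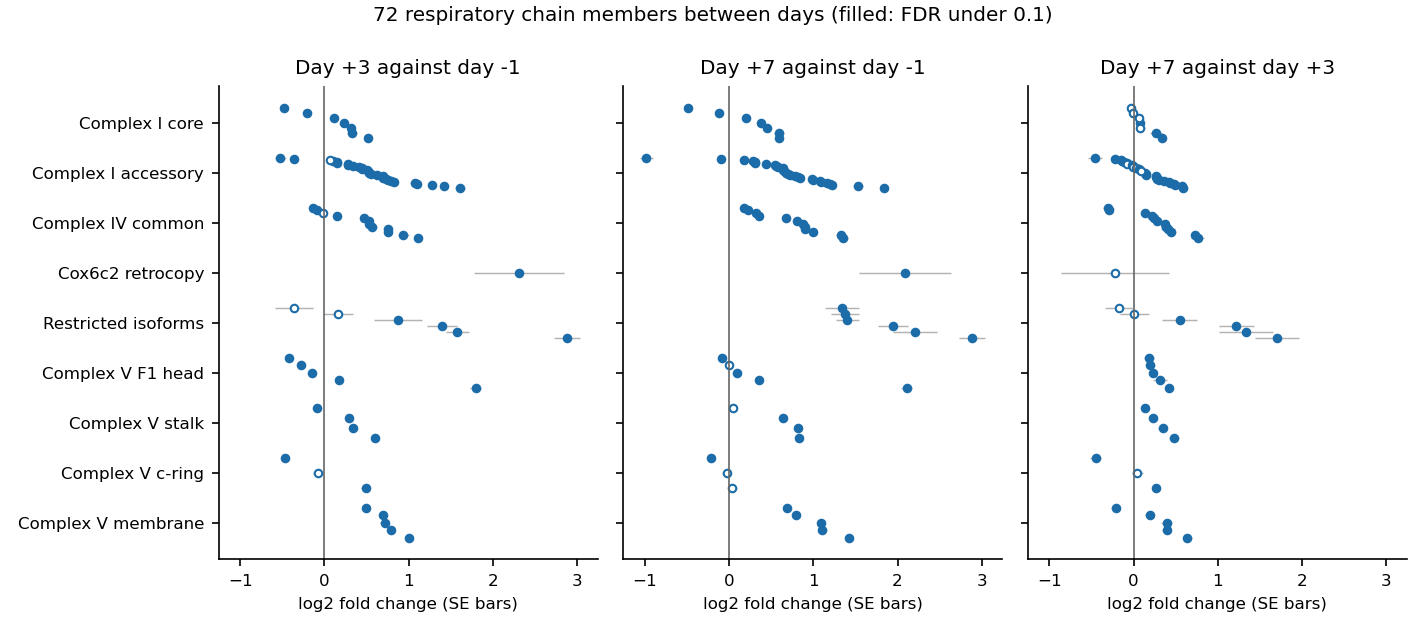
Log2 fold changes (x axis, with SE) of the 72 tested members for the 3 comparisons between days, by structural group (rows); filled points passed an FDR under 0.1. Most points lie right of 0 in the 2 comparisons with day -1, and Ndufa12 and Ndufs1 lie furthest left on day +7.

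Transcript length moved with these changes. The members had a median transcript length of 711 bases, where the 9152 other protein-coding genes with a length had 2626 bases, and 52 of 70 members were under 1000 bases. Across these 70 members, Spearman's rho of length with log2 fold change was -0.52 on day +3 and -0.50 on day +7 against day -1, and -0.06 on day +7 against day +3. Across the other genes it was -0.33, -0.25 and -0.07. These are correlations across genes measured in the same libraries, and genes are not independent replicates. The 12 members under 500 bases had a median log2 fold change of 1.26 on day +7 against day -1, where the 59 other genes of that length had 0.28. The 29 members of 500 bases or more and under 750 had 0.79, where 261 others had 0.51. The 11 members from there to under 1000 bases had 0.46, below the 0.58 of 445 others. The 8 members from there to under 1500 bases had 0.72, where 1085 others had 0.38. The 5 members from there to under 2000 bases had 0.20, below the 0.28 of 1261 others, and the 5 members from there to under 3000 bases had -0.09, where 2285 others had 0.04. Other genes of 3000 bases or more, a class with no member, had -0.22. On day +7 against day -1, members thus lay above other genes of their length in 3 of these 6 classes, of 12, 29 and 8 members. They lay below them in the other 3, of 11, 5 and 5 members. On day +3 against day -1, members lay below from 750 to under 1000 and from 2000 to under 3000 bases, and above in the rest. From day +3 to day +7, the members' median lay above that of other genes in every class with members.

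A trend of each tumor's level with transcript length was therefore estimated from genes that are not members and taken out, an alternative chosen after seeing the data. It could be taken out only of genes with a length, 70 members and 9152 others. Cox6c2 and Ndufb4c have none and were left as they were, and the shares over all genes include others without a length. Of the members, 42 were then called higher and 23 lower on day +3 against day -1 (median log2 fold change 0.12), beside 39.1% and 37.6% of all genes. On day +7 against day -1, 51 were higher and 15 lower (median 0.28), beside 44.8% and 41.1%. On day +7 against day +3, 45 were higher and 12 lower (median 0.18), beside 40.0% and 35.5%. The median of the members changed least in the comparison of day +7 with day +3. The reason for the length trend was not tested, and it cannot be told apart from time, tumor age or depth.

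**Figure D3:**
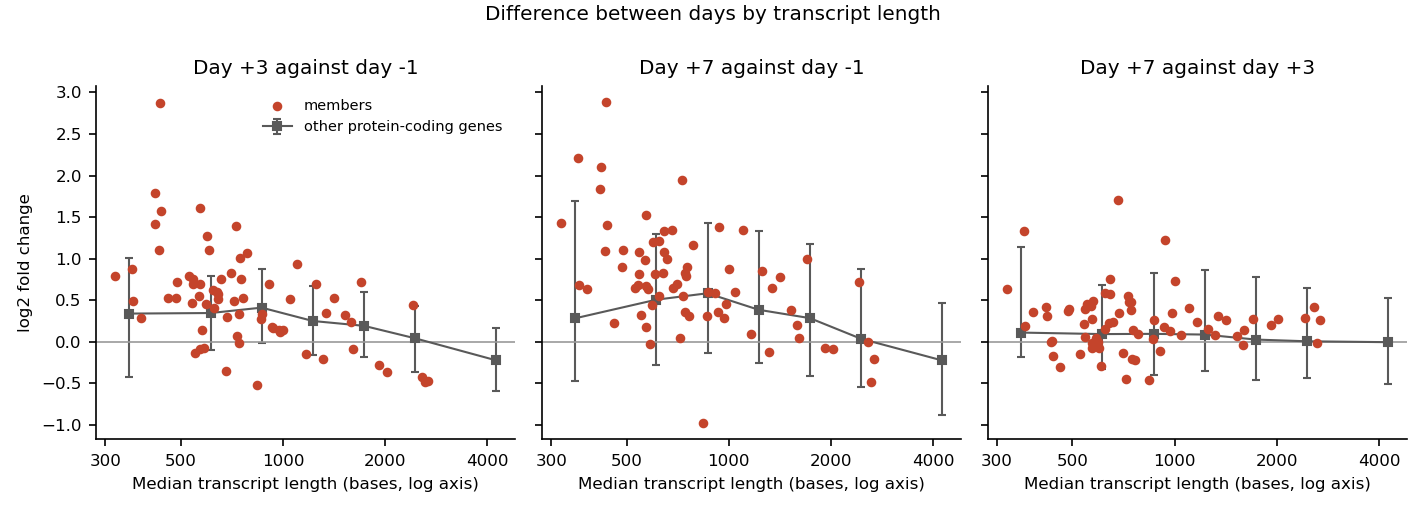
Log2 fold change between days (y axis) against median transcript length in bases (log x axis) for members (red points) and other protein-coding genes (grey squares are medians of a length class, with the quartiles). In both comparisons with day -1 the shorter members lie higher, with rho of -0.52 and -0.50, and in day +7 against day +3 rho is -0.06.

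In the F1 head of ATP synthase, the part that makes ATP, subunits of the same assembly moved apart. Atp5e, the small epsilon subunit of the central stalk, lay at 44.1 to 75.2 CPM on day -1 (median 55.2), 168 to 215 CPM on day +3 (median 199) and 200 to 273 CPM on day +7 (median 248). No tumor after CY overlapped with the range before it. Its log2 fold change was 1.79 ± 0.06 (SE) on day +3 (adjusted p = 1.98e-27, edgeR) and 2.11 ± 0.06 on day +7 (adjusted p = 7.58e-31, edgeR), and 1.33 and 1.57 with the length trend taken out. Atp5a1, the alpha subunit, went the other way on day +3. It lay at 1039 to 1425 CPM on day -1 (median 1183), 800 to 994 CPM on day +3 (median 909) and 978 to 1314 CPM on day +7 (median 1238), so that the tumors of day +3 lay under all those of day -1 and the tumors of day +7 overlapped with them. It fell by 0.42 on day +3 (SE 0.04, adjusted p = 6.91e-13, edgeR; -0.40 with the length trend taken out) and had a log2 fold change of 0.00 on day +7 (adjusted p = 0.962, edgeR; 0.06 with it taken out), and rose by 0.42 from day +3 to day +7.

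Atp5b, the catalytic beta subunit, fell by 0.28 on day +3 (adjusted p = 2.57e-07, edgeR; -0.39 with the length trend taken out) from a median of 1730 CPM to 1467 CPM, and its median was 1679 CPM on day +7. All 5 subunits of the F1 head rose between day +3 and day +7, by 0.18 to 0.42. In the peripheral stalk, which holds the head in place, Atp5h, Atp5j and Atp5o rose on both days against day -1, while Atp5f1, the b subunit, fell by 0.09 on day +3 (adjusted p = 0.00775, edgeR) and had a log2 fold change of 0.05 on day +7 (adjusted p = 0.126, edgeR). With the length trend taken out, Atp5j and Atp5o were at -0.02 and -0.08 on day +3.

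**Figure D4:**
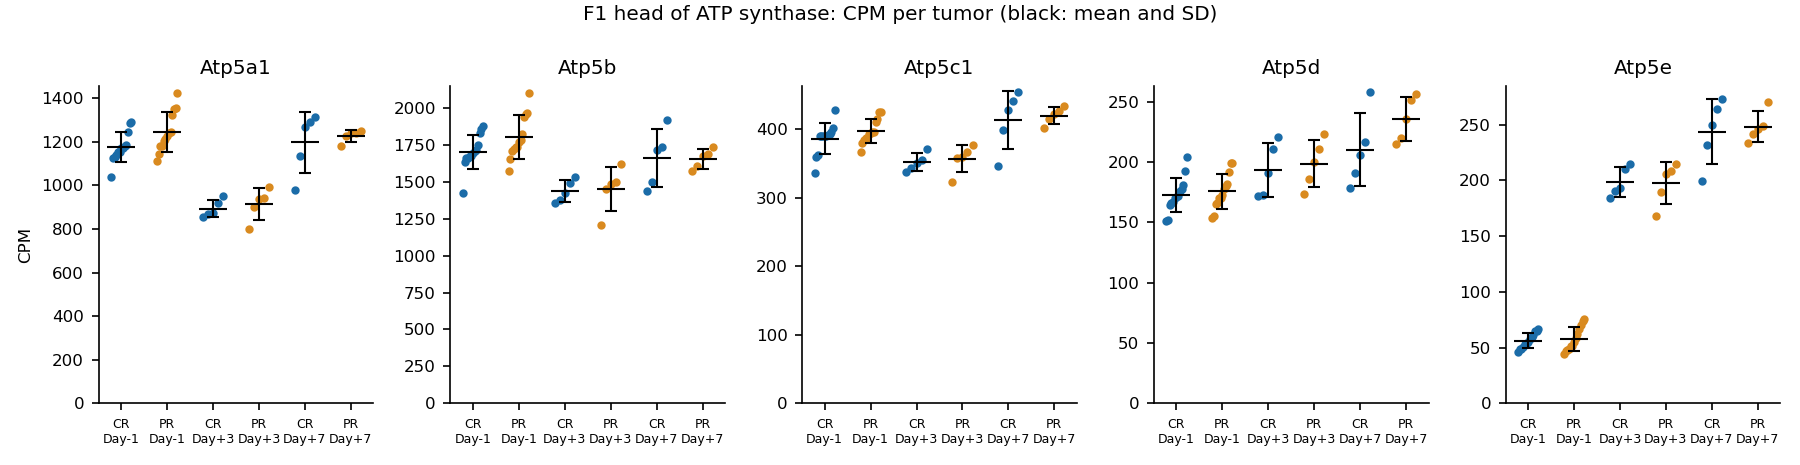
CPM per tumor (y axis, from 0) of the 5 subunits of the F1 head in the 6 groups (x axis); points are tumors and black marks are the mean with SD. Atp5e is above its range of day -1 in every tumor after CY, and Atp5a1 on day +3 is below its range of day -1.

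The 3 genes that encode the same c subunit of the membrane ring each had a course of their own. Atp5g3, the most abundant of them, lay at 389 to 608 CPM on day -1 (median 457), 635 to 720 CPM on day +3 (median 680) and 458 to 533 CPM on day +7 (median 486). It was higher in all tumors of day +3 than in those of either other day, rose by 0.49 ± 0.05 on day +3 (adjusted p = 5.41e-11, edgeR; 0.13 with the length trend taken out) and fell by 0.45 from day +3 to day +7 (adjusted p = 7.78e-08, edgeR). Atp5g1 went from a median of 121 CPM on day -1 to 87.8 CPM on day +3 and 104 CPM on day +7, a fall of 0.47 (-0.43 with the length trend taken out) and then a rise of 0.26. Atp5g2 had medians of 168, 158 and 168 CPM, passed no test between days in the main analysis, and was called lower on both days, at -0.48 and -0.49, with the length trend taken out. The 5 small membrane subunits, which shape the membrane and join ATP synthases in pairs, all rose against day -1 on both days. Atp5k, the e subunit, whose promoter holds the NRF1 letters shown above, had ranges of 53.3 to 75.5 CPM, 96.8 to 112 CPM and 128 to 184 CPM on the 3 days, with no overlap between them. Its log2 fold change was 1.43 ± 0.04 on day +7 against day -1 (adjusted p = 3.11e-31, edgeR; 0.83 with the length trend taken out). Atp5l, the g subunit, rose by 1.09 by day +7 (0.60 with it taken out), and Atp5j2, the f subunit, rose by 1.004 on day +3 (0.65 with it taken out) and then fell by 0.21.

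Among the 12 common subunits of complex IV, 9 rose and 2 fell on day +3, and all 12 rose on day +7 against day -1. With the length trend taken out, 8 were higher and 4 lower on day +3, and 8 higher and 3 lower on day +7. Cox5a, which lies on the matrix side of the complex, had 98.3 to 152 CPM on day -1 (median 113), 166 to 192 CPM on day +3 (median 172) and 196 to 333 CPM on day +7 (median 306). The 3 ranges do not overlap, and the lowest value of day +7 is that of CR_Day+7 replicate 4. Its log2 fold change was 0.57 ± 0.06 on day +3 (adjusted p = 1.23e-11, edgeR), 1.33 ± 0.06 on day +7 (adjusted p = 5.66e-25, edgeR) and 0.76 from day +3 to day +7. Without the length trend it was at 0.19 on day +3 and 0.89 on day +7 against day -1. Cox7a2l, which takes part in joining complexes III and IV into supercomplexes, went from a median of 207 CPM to 404 and 561 CPM, with log2 fold changes of 0.94 and 1.35 (0.67 and 1.04 with the length trend taken out). On day +7 it spanned 246 to 665 CPM, where the low end is again CR_Day+7 replicate 4 and the other 9 tumors lay at 451 CPM or more.

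Cox6c rose by 1.11 ± 0.03 on day +3 (adjusted p = 1.13e-30, edgeR; 0.71 with the length trend taken out) and then fell by 0.29, with ranges of 196 to 242, 428 to 546 and 345 to 413 CPM on the 3 days. Ndufa4, first described as a complex I subunit and now placed in complex IV, rose by 0.53 on day +3 and then fell by 0.30 to day +7 (adjusted p = 3.94e-05, edgeR). On day +7 against day -1 it was called higher by 0.23 and, with the length trend taken out, lower by 0.29. Cox7b rose by 0.15 on day +3 (-0.14 with the length trend taken out) and by 0.73 from day +3 to day +7 (adjusted p = 9.58e-17, edgeR; 0.69 with it taken out), and its 178 to 208 CPM on day +3 lay under its 229 to 364 CPM on day +7. Cox8a fell by 0.13 on day +3 and rose by 0.32 on day +7, and Cox6a1 by 0.09 and 0.18, against day -1. On day +7 both turned to a decrease with the length trend taken out, at -0.16 and -0.29. Cox4i1 rose by 0.76 and 0.90, Cox6b1 by 0.53 and 0.90, and Cox7a2 by 0.76 and 0.99 on day +3 and day +7 against day -1, and these 3 also passed with the length trend taken out.

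Of the 31 accessory subunits of complex I, 29 were tested, and 26 rose and 2 fell on day +3, against 27 and 2 on day +7. Once the length trend was taken out, 20 were higher and 7 lower on day +3 (median 0.23), and 23 higher and 4 lower on day +7 (median 0.27). Ndufa1, a small membrane subunit needed for assembly of the complex, had 18.2 to 27.8 CPM on day -1 (median 22.1), 55.0 to 64.9 CPM on day +3 (median 58.7) and 61.6 to 86.9 CPM on day +7 (median 80.5). Every tumor after CY lay above every tumor before it, with a log2 fold change of 1.83 ± 0.05 on day +7 (adjusted p = 1.61e-33, edgeR; 1.30 with the length trend taken out). Ndufa3 and Ndufb9, other small subunits of the membrane arm, rose by 1.10 and 0.83 on day +3, and Ndufs6 by 0.98 and Ndufb7 by 1.22 on day +7 against day -1. Without the length trend these were 0.64 for Ndufa3, 0.46 for Ndufb9, 0.51 for Ndufs6 and 0.76 for Ndufb7. Ndufb7 and Ndufs6 also rose from day +3 to day +7, by 0.59 and 0.43, and in both all tumors of day +7 lay above those of day +3. Ndufb3 rose by 0.53 on day +3 (0.17 with it taken out) and then fell by 0.22, and on day +7 against day -1 it was called higher by 0.31 and, with the trend taken out, lower by 0.09.

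Ndufa12 was the main exception among the accessory subunits. It had 31.8 to 47.6 CPM on day -1 (median 40.3), 23.6 to 34.5 CPM on day +3 (median 27.3) and 15.2 to 25.8 CPM on day +7 (median 20.5). All tumors of day +7 lay under those of day -1, and neighbouring days overlapped. It fell by 0.52 by day +3 (adjusted p = 7.43e-09, edgeR), by 0.98 by day +7 (adjusted p = 1.19e-16, edgeR) and by 0.46 between them, and its median transcript length of 838 bases is above that of the members. With the length trend taken out the decrease on day +7 was -1.35. Ndufa10 fell by 0.36 on day +3 (-0.45 with the length trend taken out), and its decrease on day +7 (-0.09) was not called by DESeq2 or limma-voom and turned to 0.02 without 16 tumors above 10 CPM of the skin keratin Krt5.

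The 7 core subunits of complex I, which carry the electron path, had medians of 0.23 on day +3 and 0.38 on day +7 against day -1, and 5 rose and 2 fell on each day. Without the length trend, 3 were higher and 3 lower on day +3 (median 0.006), near the 39.1% and 37.6% of all genes. On day +7, 4 were higher and 2 lower (median 0.12), beside 44.8% and 41.1% of all genes. Ndufs1, the largest subunit with iron-sulphur clusters, had 150 to 205 CPM on day -1 (median 184), 118 to 151 CPM on day +3 (median 132) and 119 to 149 CPM on day +7 (median 130). The tumors of day +7 lay under all those of day -1, and the highest of day +3 overlapped with them. Ndufs1 fell by 0.48 on day +3 (adjusted p = 1.35e-15, edgeR) and by 0.49 on day +7 (adjusted p = 3.21e-16, edgeR), and was at -0.45 and -0.42 with the length trend taken out, with a log2 fold change of -0.01 from day +3 to day +7. Ndufv2 fell by 0.20 and 0.12 (-0.43 and -0.38 with the trend taken out).

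Of the 8 restricted isoforms, 6 were tested, and 4 rose on day +3 and 6 on day +7 against day -1. With the length trend taken out, 3 were higher and 1 lower on day +3, and 6 were higher on day +7. Cox6b2, known from testis, had 0.15 to 1.21 CPM on day -1 (median 0.73), 3.71 to 6.07 CPM on day +3 (median 5.17) and 2.71 to 6.65 CPM on day +7 (median 5.12). All tumors after CY lay above all before it, with a log2 fold change of 2.88 ± 0.15 on day +3 (adjusted p = 3.54e-21, edgeR; 2.42 with the length trend taken out). Cox7a1, the muscle isoform of subunit 7a, rose by 1.58 on day +3 (adjusted p = 3.08e-14, edgeR) and 1.40 on day +7 (1.12 and 0.87 with it taken out). Cox4i2, an isoform linked to hypoxia and to lung and vessel cells, rose from a median of 0.68 CPM to 1.72 and 2.44 CPM, by 1.40 and 1.94 (1.03 and 1.53 with it taken out), and its tumors of day +3 and day +7 lay above all of day -1. Ndufa4l2, a paralog of Ndufa4 induced by hypoxia, differed by 0.16 on day +3 (adjusted p = 0.421, edgeR; -0.15 with the length trend taken out) and rose by 1.38 on day +7 (adjusted p = 4.58e-10, edgeR; 1.03 with it taken out), where it spanned 2.42 to 13.9 CPM. Beside it, 15 of 21 hypoxia genes rose and 1 fell on day +7 against day -1 (median 0.69), while 2 rose and 17 fell on day +3. Their summed level was 6791 to 9973 CPM on day -1, 4743 to 5183 CPM on day +3 and 5830 to 13815 CPM on day +7, so that the tumors of day +7 overlapped with those of day -1. Their part in the rise of Ndufa4l2 was not tested.

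Across the tumors of day -1, Cox6a2 and Cox8b, the isoforms of contractile muscle, went with skeletal muscle RNA. Cox6a2 had a median of 3.29 CPM on day -1 (0.999 to 7.58), 2.92 CPM on day +3 (1.63 to 3.34) and 7.05 CPM on day +7 (4.53 to 16.1). From day +3 to day +7 it rose by 1.70 ± 0.26 (adjusted p = 1.53e-07, edgeR), with no overlap, and Cox8b rose by 1.33 ± 0.32 (adjusted p = 0.000285, edgeR). The summed level of 16 skeletal muscle genes was 325 to 881 CPM on day +3 and 625.3 to 3262 CPM on day +7, with none of these genes at 0. In the main analysis Cox8b had also risen from day -1 to day +3, by 0.81 to 0.99 with each tumor left out. That rise is given for the main analysis only. With the length trend taken out, the 6 restricted isoforms tested went from 4 called higher over those days to 3 higher and 1 lower. Over those days the summed muscle level had medians of 691.5 and 541.9 CPM, and 1 muscle gene rose and 4 fell. Over the 26 tumors of day -1, Pearson's r of log2 CPM with the log2 summed muscle level was 0.86 for Cox6a2 (Spearman's rho 0.80) and 0.91 for Cox8b (rho 0.91), each with a permutation p of 1e-05, the smallest that 100000 resamples can give, and an adjusted p of 3.5e-05 over r and rho of 7 relations. Without the 2 tumors farthest from the median muscle level, r was 0.86 and 0.91. Within CR it was 0.92 and 0.90 and within PR 0.74 and 0.92. Both muscle levels and isoform levels come from the same library of each tumor.

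**Figure D5:**
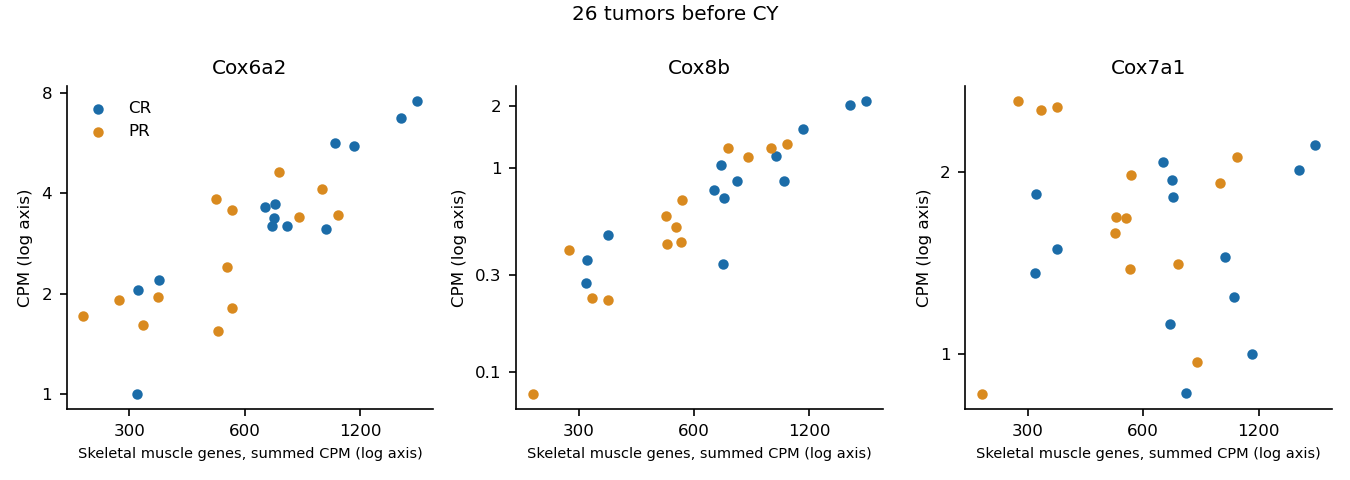
CPM of Cox6a2, Cox8b and Cox7a1 (log y axis) against the summed CPM of 16 skeletal muscle genes (log x axis) in the 26 tumors before CY; blue points are CR and orange points are PR. Cox6a2 and Cox8b rise with the muscle level (r of 0.86 and 0.91), and Cox7a1 does not (r of -0.06).

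Cox7a1 did not follow the muscle level (r = -0.06, rho = -0.07, permutation p = 0.757 and 0.73). The isoforms linked to hypoxia and vessels did not pass either. For Ndufa4l2, r was -0.32 with 8 pericyte genes (adjusted p = 0.237) and 0.07 with the hypoxia genes (adjusted p = 0.883). For Cox4i2, r was 0.03 (adjusted p = 0.917) and 0.28 (adjusted p = 0.298). The relation of Ndufa4l2 with the pericyte genes was -0.54 without the 2 tumors farthest from the median pericyte level (permutation p = 0.00661, unadjusted), while it was -0.38 within CR and -0.01 within PR.

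Between CR and PR, no member was called at any time by edgeR. On day -1, 0 of 69 members passed, beside 0.00928% of 10777 genes, and 8 members had an unadjusted p under 0.05, beside 17.5% of all genes. DESeq2 called 2 members (4.11% of all genes) and limma-voom with quality weights called 3 (11%). Without any of 3 tumors in turn, PR_Day-1 replicate 7, PR_Day-1 replicate 9 or CR_Day-1 replicate 3, edgeR called 1 member lower in CR. On day +3, 0 of 72 members passed (0% of 11839 genes), 0 had an unadjusted p under 0.05 (2.16%), and DESeq2 and limma-voom called 0 members (0.0253% and 0% of all genes). On day +7, 0 of 72 passed (0% of 11727 genes), 1 had an unadjusted p under 0.05 (2.84%), and DESeq2 and limma-voom called 0 members (0.0426% and 0.00853%).

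The size of the differences before CY was small for the common subunits. The members' median log2 difference (CR minus PR) was -0.04 on day -1, where all genes had -0.01, and 56 of 69 members were below 0. Beside it, 12 of 12 leukocyte genes tested were above 0 (median 0.35) and 10 of 10 cell cycle genes below 0 (median -0.09), with 0 of either called by edgeR and 7 and 5 at an unadjusted p under 0.05. Their part in the members' shift was not tested. The 95% interval, computed from the SE, lay within 0.322 of 0 on the log2 scale for 65 of 69 members on day -1, 65 of 72 on day +3 and 56 of 72 on day +7. On day -1 the other 4 were Cox6a2, Cox6c2, Cox7a1 and Ndufa4l2. Ndufa4l2 had the smallest p. Its 13 CR tumors spanned 1.90 to 6.23 CPM (median 3.28) and its 13 PR tumors 1.77 to 4.46 CPM (median 2.39), which overlap, with a log2 difference of 0.50 ± 0.17 (adjusted p = 0.157, edgeR; 0.0941, DESeq2). Cox6a2 was higher in CR by 0.51 ± 0.25 (adjusted p = 0.284, edgeR), with medians of 3.38 CPM in CR and 2.41 CPM in PR. Beside it, the 15 skeletal muscle genes tested had a positive difference in 14. With the muscle level as a covariate in edgeR, 0 members were called and 2 had an unadjusted p under 0.05.

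Ndufa9, an accessory subunit that joins the matrix arm to the membrane arm, had 82.1 to 103 CPM in CR (median 91.2) and 86.3 to 115 CPM in PR (median 102) on day -1, a log2 difference of -0.12 ± 0.04 (adjusted p = 0.161, edgeR; 0.092, DESeq2; 0.0542, limma-voom). Ndufs1 differed by -0.09 ± 0.04 (adjusted p = 0.207, edgeR). Atp5a1 also differed by -0.09 ± 0.04 (adjusted p = 0.224, edgeR; 0.0948, limma-voom), and Ndufb9 by -0.08 (adjusted p = 0.227, edgeR; 0.0927, limma-voom). On day +3 the smallest p in each direction were those of Ndufa4l2 (-0.46, p = 0.0631 unadjusted) and Cox8b (0.42, p = 0.141 unadjusted), from edgeR. On day +7 they were those of Ndufa7 (-0.16, p = 0.0407 unadjusted) and Ndufb4c (0.15, p = 0.0719 unadjusted), from edgeR.

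Whether the CR-PR difference changed with time was tested in the model of all 46 tumors. From day -1 to day +3, 0 members were called (0% of 13194 genes) and 1 had an unadjusted p under 0.05 (3.49%). That member was Ndufa4l2, with a change of -0.96 ± 0.36 (p = 0.0111 unadjusted, edgeR). From day -1 to day +7, 0 members were called (0.00758%) and 5 had an unadjusted p under 0.05 (11.5%), with Ndufa4 (0.24 ± 0.10) and Ndufa4l2 (-0.77 ± 0.35) first among them. DESeq2 called 0 members in both (0.0227% and 0.303% of all genes), as did limma-voom (0% and 0%).

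Genes that work with the respiratory chain are given for the same comparisons, beside the shares over all genes above. Of 32 assembly factors, 15 rose and 10 fell on day +3 and 17 rose and 12 fell on day +7 against day -1 (median 0.17), and with the length trend taken out 13 were higher and 13 lower on day +3 and 13 and 15 on day +7. These shares lay near those over all genes. Cox19, a copper-related factor of complex IV, rose by 1.06 on day +3, and Ndufaf4, a factor of complex I, fell by 0.56. From day +3 to day +7, 14 rose and 12 fell, with Coa5 at 1.21 and Cox17, the copper chaperone of complex IV, at 0.82. Of 11 enzymes of the Krebs cycle, which supplies the NADH, 0 rose and 9 fell on day +3 (median -0.25), led by Idh3a at -1.004 and Cs, citrate synthase, at -0.77. On day +7 against day -1, 3 rose and 8 fell, and from day +3 to day +7, 7 rose and 0 fell. Cycs, cytochrome c, fell by 0.58 on day +3 and rose by 0.58 from day +3 to day +7, and Cyc1 of complex III had 0.05 on day +3 (adjusted p = 0.385, edgeR) and rose by 0.25 from day +3 to day +7. With the length trend taken out, these 2 genes were called lower on day +3 and higher on day +7 against day -1.

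Of 13 regulators, 3 rose and 9 fell on day +3 (median -0.37), and 5 rose and 7 fell on day +7 against day -1 (median -0.31). With the length trend taken out, 1 was higher and 10 lower on day +3, and 4 and 8 on day +7. Nrf1, which encodes the factor of the NRF1 letters above, had medians of 73.56, 55.05 and 53.46 CPM on day -1, day +3 and day +7. Gabpa, whose protein binds the ETS letters above, went from a median of 150.5 CPM on day -1 to 75.2 CPM on day +3 and 82.0 CPM on day +7, a fall of 1.01 and 0.90. Myc fell by 2.08 on day +3. Chchd2 rose by 0.65 and 0.79 against day -1, and Higd1a, a small protein bound to complex IV and induced by hypoxia, rose by 1.38 on day +7. Hif1a rose by 1.68 from day +3 to day +7.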

How the data were processed

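The authors extracted RNA from frozen tumors with Trizol and RNeasy MinElute columns, sequenced single-end reads (the labels and the paper's methods give different read lengths) and, per the processing notes, used kallisto and GRCm38.p6; the version and the summing of transcripts to genes are not given in the sources used here. The authors deposited whole-number counts per gene symbol, not normalized. The last entry, Pax7, was incomplete and left out. Columns without a sample numbered 0.

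In R 4.3.3, counts were TMM-normalized and tested with edgeR 4.0.16 (glmQLFit, legacy form, glmQLFTest, filterByExpr), CR against PR within each time point and days in a model of 6 groups, with CR and PR weighted equally, at an FDR under 0.1. Alternatives were DESeq2 1.42.0, limma 3.58.1 (voom with quality weights), other size factors and filters, an FDR of 0.05, left-out tumors, covariates and a lowess trend on GENCODE M21 transcript length (span 0.5, protein-coding genes with a length). Correlations used permutation tests (scipy 1.17.1). Code was tested on simulated data.

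Members and lists were chosen with earlier results of these data known. Members named with values were the 5 with the smallest p per direction between days, the 3 per direction between CR and PR, isoform families and the most abundant member of each structural group; those outside this rule, such as Atp5j2 and Atp5h, were chosen after their values were seen. A result that this rule would name is not reported here. Amino acid sequences were not used here.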

Additional observations from a re-analysis of the deposited data

Results flagged for a closer look

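In 172 sets of 5 tumors (43 named members in the 4 groups after CY), 7 had a highest or lowest tumor far from the other 4, by a gap of over 0.71 of the whole range, where chance marks about 1 in 20 such sets. Atp5g1 was 79.5 CPM in PR_Day+3 replicate 4, where the others had 87.4 to 89.5 CPM. Atp5g2 was 202 CPM in PR_Day+7 replicate 3, where the others had 164 to 173 CPM. Cox4i2 was 3.07 CPM in PR_Day+3 replicate 2, where the others had 1.35 to 1.72 CPM, and 4.68 CPM in PR_Day+7 replicate 5, where the others had 1.99 to 2.65 CPM. Cox6c was 524 CPM in CR_Day+3 replicate 1 (others 428 to 454 CPM), and Ndufv3 was 104 CPM in the same tumor (others 79.7 to 85.5 CPM). Cox7a2 was 193 CPM in PR_Day+3 replicate 2 (others 185 to 186 CPM). No member passed the test of a change of the CR-PR difference between days.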

How the results depend on the processing

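The counts of members called between days kept within 1.5 times of the reported ones under the other tools, size factors, filters and the FDR of 0.05, except for decreases against day -1: those numbered 23 (day +3) and 15 (day +7) with the transcript-length trend taken out, and 7 and 2 without the 16 tumors above 10 CPM of Krt5. Leaving out each tumor gave 55 to 57 increases and 8 to 12 decreases on day +3, 62 to 63 and 4 to 6 on day +7, and 43 to 48 and 8 to 11 from day +3 to day +7. For CR against PR on day -1 it gave 0 higher and 0 to 1 lower, DESeq2 gave 1 and 1, and limma-voom gave 3 lower. Title numbers did not pair the tumors (30 same-number pairs, r from -0.215 to 0.162, 5 above 0.1); with the title number as a block, 54 members rose and 9 fell on day +3, 62 and 5 on day +7, 45 and 10 from day +3 to day +7, and 0 were called between CR and PR.

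For the relations of isoforms with marker lists, Cox7a1 and muscle turned to 0.0715 within CR, Cox4i2 and pericytes to -0.0853 within PR, and Ndufa4l2 and hypoxia to -0.121 within PR. Ndufa4l2 and pericytes were at -0.538 without 2 tumors, with an unadjusted permutation p under 0.05. Log2 fold changes of members named by the rule turned sign as follows. With the length trend taken out, against day -1: on day +7 Cox6a1 -0.29, Cox8a -0.16, Ndufa4 -0.29, Atp5g3 -0.37 and Atp5f1 -0.14, and on day +3 Cox7b -0.14 and Ndufa4l2 -0.15. Of members named outside the rule, Atp5j and Atp5o turned to -0.02 and -0.08 on day +3. From day +3 to day +7 the same alternative gave Cox6b2 -0.0602 and Atp5g2 -0.0172. Without the tumors above 10 CPM of Krt5, Ndufa10 was at 0.0202, Atp5g2 at 0.0588 and Atp5b at 0.0145 on day +7, Cox6a1 at 0.0152 and Atp5f1 at 0.0168 on day +3, and Cox6b2 at -0.0286 from day +3 to day +7. With the block, Cox5a was at -0.0373 for CR against PR on day +3, Cox6b2 at -0.00294 from day +3 to day +7 and Atp5g3 at -0.11 on day +7. Cox6b2 without the filter on low counts was at -0.0316 from day +3 to day +7, and Atp5g2 under limma-voom at 0.0124 on day +7. With each tumor left out, Cox6b2 ranged from -0.102 to 0.0858 and Atp5g2 from -0.0202 to 0.0845 from day +3 to day +7, Atp5g2 from -0.0500 to 0.0170 on day +7, and Cox5a for CR against PR on day +3 from -0.00101 to 0.0541. The cause of these changes was not tested.

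Each tumor is a separate mouse, with 5 per group after CY. Restricted isoforms rest on few counts: Cox4i2 had 966 counts over the 46 tumors and Cox8b 1110.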
